A study of Mus musculus with 24 samples.

Results

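H3K27ac was followed at 10 genes that serve as identity markers of dentate granule neurons in nuclei of the mouse dentate gyrus: Prox1, Neurod1, Neurod2, Bcl11b, Calb1, C1ql2, C1ql3, Dsp, Tdo2 and Pdzd2. The members were the rows of the deposited peak table whose gene column named one of them, which gave 176 of 144154 peaks and 10 of 18808 genes. All 176 peaks passed the filter on low counts. The peaks of one gene share a locus and are not replicates of each other.

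This histone mark, an acetyl group on lysine 27 of H3 found at active promoters and enhancers, was measured by chromatin immunoprecipitation and sequencing (ChIP-seq) of nuclei sorted for the neuronal protein NeuN. The mice were C57BL/6 males of 12 weeks, and each library came from about 750000 nuclei. The labels give the dentate gyrus as the source of the nuclei, but hippocampus stands in every title. Each mouse was injected with vehicle (Veh) or with 30 mg/kg of CI-994, which inhibits histone deacetylases of class I (HDACi), 1 h before the test. It then had 2 foot shocks of 0.2 mA in a conditioning chamber (contextual fear conditioning, CFC) or spent the same time there unshocked (Context), and was killed 1 h afterwards. There were 3 H3K27ac libraries in each of the vehicle groups, Veh-Context and Veh-CFC, and in each of the drug groups, HDACi-Context and HDACi-CFC. No group was left in its home cage, so all mice had been handled, injected and placed in the chamber. The labels do not say how many mice a library holds, so the p-values measure the spread between libraries. Conditioning was assigned by cage, so that a cage effect and a shock effect cannot be told apart.

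Granule neurons are the principal cells of the dentate gyrus and send their mossy fibre axons to area CA3. The homeobox factor Prox1 sets and maintains their identity, and the basic helix-loop-helix factors Neurod1 and Neurod2 drive their differentiation by binding E-boxes, short motifs of the form CANNTG. Genes that define a cell type often lie under long stretches of H3K27ac rather than under single narrow peaks.

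The count total in peaks ranged from 6639158 to 16734757 per library, and the member peaks held 0.186% to 0.278% of it. Promoter peaks, those with an edge within 1000 bp of the transcription start site (TSS) named beside them, held 18.3% to 22.5% of the counts in the 6 Context libraries and 24.9% to 26.7% in the 6 CFC libraries, without overlap. The HDACi-Context libraries had the lowest shares, 18.3% to 19.6%. They enter both the drug comparison in Context mice and the shock comparison under CI-994. A low value there gives a fall in the first and a rise in the second, so such paired calls are not separate findings. Levels are given in CPM, the count of a peak scaled by the TMM-adjusted total of its library. With no spike-in, every change is measured against the rest of that library's peaks. Fewer nuclei that carry the mark at a locus and less of the mark per nucleus cannot be told apart.

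The sequence before the start of 5 members is shown to give the start regions of the 4 transcription factor genes, whose promoter peaks rose with shock under CI-994, and of Tdo2, whose promoter peak fell. Each run is the 250 bases before a RefSeq start on GRCm38.p6, the assembly of the build mm10, and capitals mark E-boxes (CANNTG, which reads as CANNTG on both strands). All 5 genes lie on the minus strand, and each run is written 5′ to 3′ on that strand. Prox1 has more than one start in the table. The run of its upstream start is at chr1:190170828-190171077, that of Neurod1 at chr2:79456637-79456886, that of Neurod2 at chr11:98329646-98329895, that of Bcl11b at chr12:108003415-108003664 and that of Tdo2 at chr3:81975729-81975978.
Prox1: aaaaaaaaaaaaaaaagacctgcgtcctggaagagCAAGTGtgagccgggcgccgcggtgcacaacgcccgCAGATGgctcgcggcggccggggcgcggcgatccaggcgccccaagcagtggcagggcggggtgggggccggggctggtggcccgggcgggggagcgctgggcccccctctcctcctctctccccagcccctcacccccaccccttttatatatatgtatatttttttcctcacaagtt
Neurod1: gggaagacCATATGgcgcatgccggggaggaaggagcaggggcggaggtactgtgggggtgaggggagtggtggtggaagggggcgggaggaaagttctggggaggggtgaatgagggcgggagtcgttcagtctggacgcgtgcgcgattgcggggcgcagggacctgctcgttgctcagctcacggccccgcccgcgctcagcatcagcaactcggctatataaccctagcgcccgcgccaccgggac
Neurod2: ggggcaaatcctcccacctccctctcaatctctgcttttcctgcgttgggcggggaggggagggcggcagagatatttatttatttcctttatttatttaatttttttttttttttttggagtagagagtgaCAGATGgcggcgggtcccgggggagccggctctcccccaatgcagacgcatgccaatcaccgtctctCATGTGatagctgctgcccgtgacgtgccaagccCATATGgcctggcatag
Bcl11b: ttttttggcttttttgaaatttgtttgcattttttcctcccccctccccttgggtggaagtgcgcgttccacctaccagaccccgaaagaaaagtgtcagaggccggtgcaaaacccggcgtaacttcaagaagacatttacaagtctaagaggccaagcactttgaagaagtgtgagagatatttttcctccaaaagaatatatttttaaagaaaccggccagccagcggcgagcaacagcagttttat
Tdo2: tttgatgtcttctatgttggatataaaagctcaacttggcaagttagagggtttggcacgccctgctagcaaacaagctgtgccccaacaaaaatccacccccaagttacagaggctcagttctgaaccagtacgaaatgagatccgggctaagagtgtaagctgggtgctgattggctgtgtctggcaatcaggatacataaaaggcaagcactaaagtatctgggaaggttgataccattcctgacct
The Neurod2 promoter held 3 E-boxes, of which 1 was CAGATG, and the Prox1 promoter held 2, of which 1 was CAGATG. Neurod1 had 1 E-box, and Bcl11b and Tdo2 had 0. An E-box occurred in 66.2% of 32851 promoters of this length, and CAGATG in 14.4%, counted on both strands and always inside an E-box. The Tdo2 and Prox1 runs each held 1 TATAAA (12.4% of promoters, both strands). Tdo2 had 3 CpG, where the median promoter has 6, while Neurod1 had 22 and Prox1 20. Member peaks covered all 250 bases at Prox1, Neurod1, Bcl11b and Tdo2, and 92 at Neurod2. The corresponding windows of C1ql3 and Pdzd2 lay between peaks, with 0 bases covered.

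The 10 genes carried more H3K27ac than most genes of the table. Prox1 had 38 peaks over 143395 bp, Bcl11b 35 over 137273 bp and Pdzd2 33 over 78594 bp. Calb1 and Dsp had 13 each, C1ql3 12, C1ql2 10, Neurod1 and Neurod2 8 each, and Tdo2 6. The median gene of the table had 4. A gene total is the count summed over all peaks named for a gene, and the mean totals of the members lay from the 81.3th percentile of all genes (Tdo2) to the 99.5th (Prox1).

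Per kilobase of peak, the order of mean levels over the 12 libraries was Neurod2 at 5.19 ± 1.51 CPM per kb, Tdo2 at 4.83 ± 1.17, C1ql3 at 4.81 ± 0.506, Prox1 at 4.70 ± 0.563, Neurod1 at 4.54 ± 0.456 and Bcl11b at 4.49 ± 1.09 (SD, n = 12). Calb1 followed at 4.27 ± 0.954, C1ql2 at 3.80 ± 0.38, Pdzd2 at 3.66 ± 0.337 and Dsp at 3.00 ± 0.299. Neighbours in this order differed by less than the larger of their SDs, except that Dsp lay more than 1 SD below Pdzd2. The order depended on the group. Neurod2 was the highest of the 10 in HDACi-CFC at 6.99 ± 0.586 CPM per kb and below 6 of the other 9 in HDACi-Context at 3.45 ± 0.947, while Tdo2 went from 3.68 ± 0.233 in HDACi-CFC to 5.86 ± 0.699 in HDACi-Context (SD, n = 3 each).

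**Figure D1:**
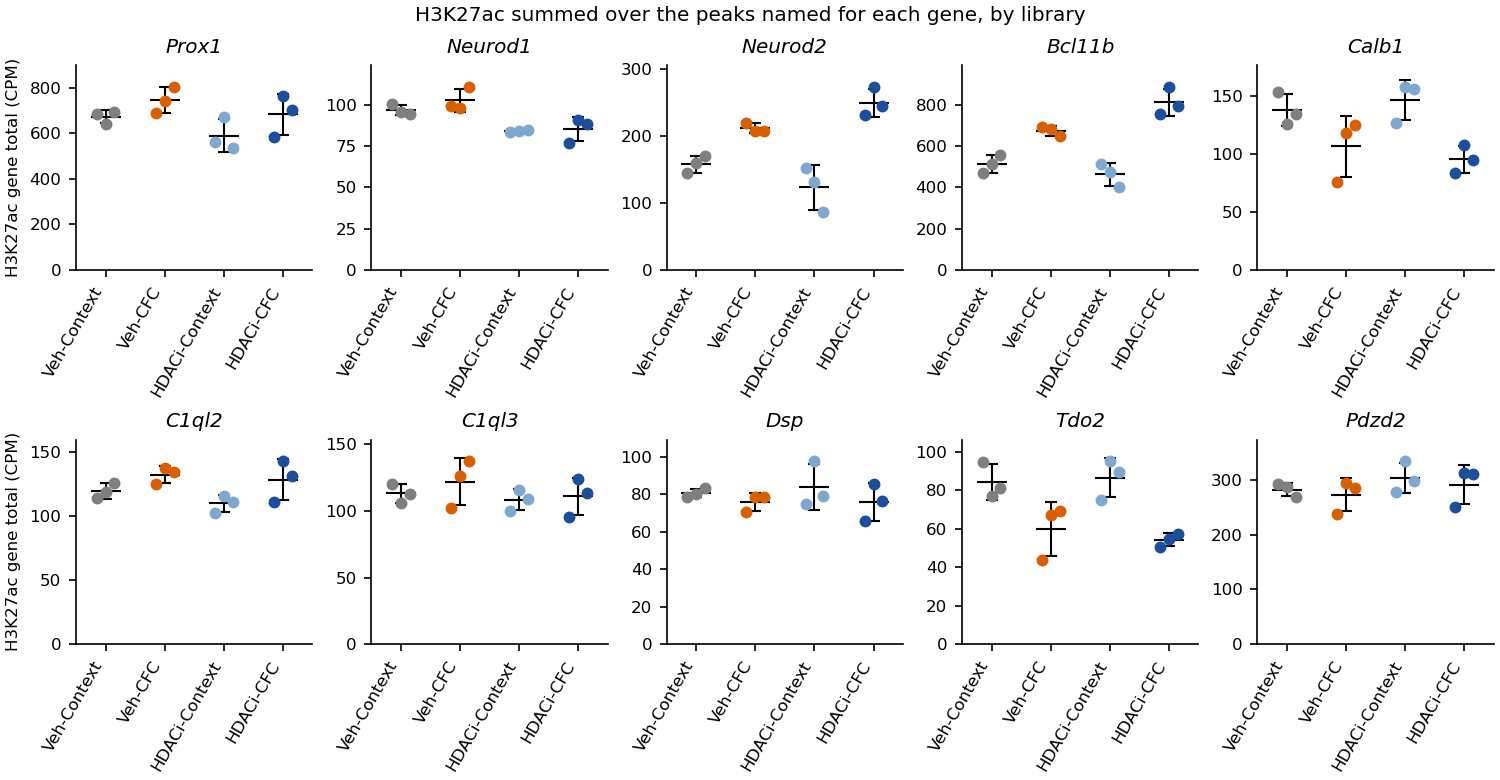
H3K27ac level of each of the 10 genes in CPM (vertical axis, from 0, 1 panel a gene), summed over all its peaks, in the 3 libraries of each group (points) with the group mean and SD (bars). Neurod2 and Bcl11b are higher in all CFC libraries than in the Context libraries of the same drug arm, Tdo2 is lower, and Pdzd2 overlaps between groups. Dsp overlaps between the CI-994 groups, while its Veh-CFC libraries (70.6, 78.5 and 78.6 CPM) lie just below its Veh-Context libraries (78.8, 80.4 and 83.3 CPM).

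Part of the mark lay in wide peaks. Of the 176 peaks, 11 were at least 10000 bp wide (6.25%, against 1.63% of all peaks), and the median width was 1475 bp against 1188 bp. Such widths were not particular to the members: the widest peak was 35920 bp at Stxbp6 and 21647 bp at Maml2, of the wider dentate list described further on, 25482 bp at the oligodendrocyte gene Mbp and 18626 bp at the astrocyte gene Slc1a2. The 11 domains belonged to Prox1 (3), Bcl11b (3), Pdzd2 (2), Neurod2 (1), C1ql2 (1) and C1ql3 (1). The widest, chr12:107945864-107980269 in an intron of Bcl11b, spanned 34406 bp. Calb1, Tdo2, Dsp and Neurod1 had none, and the widest peak at Neurod1 was the 8273-bp peak over the gene itself.

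The chromatin state deposited beside each peak went against the mark at part of these loci. All 38 Prox1 peaks, 9 of 13 at Dsp, 5 of 10 at C1ql2 and 2 of 33 at Pdzd2 were given the state repressed_regions, in all 54 of 176 (30.7%) against 4.25% of all peaks. The map behind the states, and the tissue it came from, are not given in the sources used here. By contrast, 27 of 35 Bcl11b peaks and 5 of 8 Neurod2 peaks were called active enhancers. The gene column also assigns peaks by nearest TSS: 11 Prox1 peaks lay in introns of the antisense transcript Prox1os, and 8 of the 12 C1ql3 peaks in the neighbouring genes Pter (4) and Rsu1 (4). Some Tdo2 peaks overlapped the protein-coding gene Asic5, and a Neurod2 peak overlapped Gm33099. ChIP-seq carries no strand, so Prox1 and Prox1os cannot be told apart there.

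Markers of the other cells that a hippocampal dissection or NeuN sort could hold were set beside the members. The median level per kilobase of peak was 4.51 CPM per kb over the 10 members, 2.91 over 10 genes of CA pyramidal neurons, 3.32 over the 6 of 12 interneuron genes that had a peak (Gad2 and Slc32a1 were among the others), 3.17 over 7 astrocyte genes, 2.27 over 9 oligodendrocyte genes and 2.57 over 7 microglial genes. Only genes with a peak entered these medians, so a level of 0 could not arise, and the medians cannot show which cells the nuclei came from. The share of these cells in the member signal was not tested. The myelin gene Mbp reached the 99.0th percentile of gene totals, and Gad1, the GABA-synthesising enzyme, the 38.6th.

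Shock was followed by a rise of H3K27ac at the transcription factor genes Neurod2 and Bcl11b and by a fall at Tdo2, the tryptophan-degrading enzyme, whether the mice had received vehicle or CI-994. Under CI-994 the total of the calcium buffer gene Calb1 was also called lower. That of C1ql2, which encodes a secreted synaptic protein of the mossy fibres, was called higher. The totals of Prox1, Neurod1, C1ql3, Dsp and Pdzd2 did not pass the test for shock under either injection with TMM factors.

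Under vehicle, 3 of 10 gene totals were called for shock against context (edgeR quasi-likelihood F test, Benjamini-Hochberg adjusted p under 0.05 over 18806 genes), where 22.9% of all gene totals were. At Bcl11b, a zinc-finger factor of deep-layer and granule neurons, the total was 472, 515 and 556 CPM in the Veh-Context libraries and 695, 684 and 647 in the Veh-CFC libraries, a log2 change of 0.39 ± 0.09 (SE, adjusted p = 0.0120). At Neurod2 it was 145, 159 and 171 CPM against 220, 207 and 208, a change of 0.42 ± 0.14 (adjusted p = 0.0391). Tdo2 had 94.9, 77.0 and 81.0 CPM against 43.7, 67.0 and 69.0, a fall of 0.50 ± 0.14 on the log2 scale (adjusted p = 0.0201). The groups did not overlap at these 3 genes. Without Veh-Context replicate 1 or Veh-CFC replicate 1 none of the 3 was called: adjusted p reached 0.0677 at Bcl11b, 0.234 at Neurod2 and 0.107 at Tdo2. The Neurod2 call also ended when any other vehicle library, HDACi-Context replicate 2 or HDACi-CFC replicate 3 was left out, and with peaks within 50000 bp of the start alone (adjusted p = 0.0864). The Calb1 total was not called, at -0.38 ± 0.15 (adjusted p = 0.0687), with 153, 126 and 134 CPM against 76.0, 118 and 125, without overlap. Of its 13 peaks, 3 were called lower and 0 higher, where 2.74% of all peaks were called lower and 4.41% higher.

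Under CI-994 the same contrast called 5 of 10 gene totals, against 56.1% of all. Neurod2 had 153, 131 and 86.4 CPM in HDACi-Context and 232, 273 and 245 in HDACi-CFC, a log2 change of 1.02 ± 0.14 (adjusted p = 2.98e-05). Bcl11b went from 515, 473 and 401 CPM to 756, 887 and 796, a change of 0.81 ± 0.09 (adjusted p = 1.27e-05). For both genes every HDACi-CFC library was above every library of the other 3 groups. Tdo2 fell from 75.1, 95.04 and 89.7 CPM to 50.7, 54.9 and 57.5, by 0.67 ± 0.14 on the log2 scale (adjusted p = 5.42e-04), and Calb1 from 126, 157 and 156 to 83.9, 107 and 94.4, by 0.62 ± 0.14 (adjusted p = 0.00155). Both sets were separate, with all HDACi-CFC libraries below all HDACi-Context libraries.

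C1ql2 was the smallest of the 5, with a log2 change of 0.22 ± 0.09 (adjusted p = 0.0446). Its HDACi-Context values of 103, 116 and 111 CPM overlapped the HDACi-CFC values of 111, 143 and 131. Its call was lost in 9 of 19 alternatives, with adjusted p up to 0.232 without HDACi-CFC replicate 2. It was also lost over peaks within 50000 bp of the start and without any one Veh-Context library, Veh-CFC replicate 2, HDACi-Context replicate 1 or 3, or HDACi-CFC replicate 3. The calls at Neurod2, Bcl11b and Tdo2 under CI-994 held in all 19 alternatives, and that at Calb1 in 18. All 10 totals had the same sign under vehicle and under CI-994, 2 comparisons that share no library. The share of all gene totals with the same sign was not counted, so this cannot be read as a trait of the members.

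With TMM factors no member total was called for the drug. In CFC mice edgeR called 0 of 10 totals (1.92% of all gene totals) and DESeq2 0, and an unadjusted p below 0.05 was reached by 1 higher and 1 lower total. In Context mice edgeR called 0 of 10 (20.3% of all) and DESeq2 0, and 2 lower totals reached an unadjusted p below 0.05. With library totals edgeR called 1 total in CFC mice (Neurod1, lower) and 3 in Context mice (Prox1, Neurod1 and Neurod2, lower), and with loess offsets 2 in Context mice (Prox1 and Neurod1, lower). The lowest adjusted p-values were those of Neurod1, at -0.26 ± 0.08 in CFC mice (log2, adjusted p = 0.0933) and -0.20 ± 0.08 in Context mice (adjusted p = 0.0807), and of Neurod2 in Context mice, at -0.36 ± 0.14 (adjusted p = 0.0755).

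**Figure D2:**
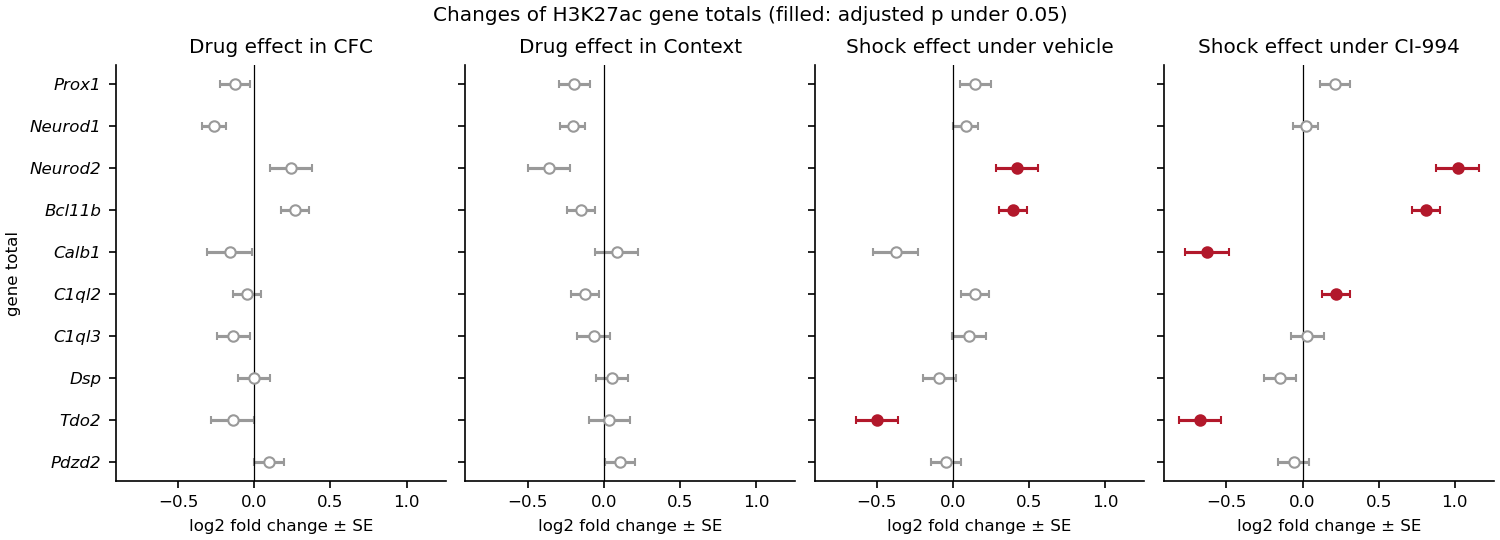
Log2 fold change (points) with its standard error (bars) of the H3K27ac total of each of the 10 genes in the comparisons of CI-994 with vehicle in CFC and in Context mice and of shock with context under vehicle and under CI-994. Bcl11b (0.39 and 0.81) and Neurod2 (0.42 and 1.02) lie to the right in both shock comparisons and Tdo2 (-0.50 and -0.67) to the left, while the drug comparisons lie between -0.36 and 0.27.

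Counted by peak, the shock comparison under vehicle called 12 member peaks as higher and 6 as lower of 176, where 7.15% of all peaks were called (4.41% higher and 2.74% lower). Under CI-994 it called 43 as higher and 24 as lower, where 37.9% of all peaks were called (20.2% higher and 17.8% lower). Of the 18 peaks called under vehicle, 16 were called under CI-994 too, 12 higher and 4 lower in both and 0 in opposite directions. That is 88.9% of the vehicle calls and 23.9% of the 67 CI-994 calls. The same overlap over all peaks was not counted. By gene, the calls under CI-994 went one way at 6 of the 10 and both ways at the other 4. Bcl11b had 17 rises and 0 drops among 35 peaks, Neurod2 7 and 0 among 8, C1ql2 3 and 0 among 10, and Dsp 2 and 0 among 13. Calb1 had 0 rises and 6 drops among 13 and Tdo2 0 and 4 among 6. Calls in both directions were found at Prox1, with 7 rises and 4 drops among 38, Neurod1 with 2 and 5 among 8, C1ql3 with 1 and 4 among 12, and Pdzd2 with 4 and 1 among 33.

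The vehicle count rested on few libraries: it was 7 without Veh-Context replicate 1, 11 without Veh-Context replicate 2 and 6 without Veh-CFC replicate 1. Over all peaks the count fell too, from 10300 to 1895, 6110 and 1453 in the same fits. With library totals in place of TMM factors, the split under CI-994 was 38 higher and 36 lower and that under vehicle 11 and 9. That scaling moved the median of all peaks under CI-994 from -0.05 to -0.18.

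The drug called 1 member peak as higher and 0 as lower in CFC mice (0.918% of all peaks). In Context mice it called 2 as higher and 18 as lower, where 8.58% of all peaks were called (2.73% higher and 5.85% lower). The 18 were spread over Prox1 (6), Neurod2 (3), Bcl11b (3), Dsp (2), C1ql2 (1), C1ql3 (1), Neurod1 (1) and Pdzd2 (1), with 0 at Calb1 and Tdo2. The count in Context mice was 8 without Veh-Context replicate 3 and 10 without HDACi-Context replicate 3. Over all peaks it fell from 12357 to 4630 and 6786 in the same fits.

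At Prox1 the mark was arranged in 3 adjoining domains that run through the gene from its 3′ end to beyond its start. The first, chr1:190152741-190175234 (22494 bp), spans both starts and intron 1, and it holds the Prox1 run printed above. It held 158, 141 and 163 CPM in Veh-Context, 224, 221 and 249 in Veh-CFC, 94.9, 109 and 88.3 in HDACi-Context and 161, 218 and 205 in HDACi-CFC. All HDACi-Context libraries were the lowest of the 12, and the CFC libraries of each drug arm lay above its Context libraries. The domain rose with shock by 0.58 ± 0.11 under vehicle (log2, adjusted p = 0.00138) and by 1.00 ± 0.11 under CI-994 (adjusted p = 1.90e-09), and fell by 0.66 ± 0.11 with the drug in Context mice (adjusted p = 4.85e-05). These 3 calls held in all 18 alternatives. In CFC mice the drug difference was -0.25 ± 0.11 (adjusted p = 0.319).

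The other domains of Prox1 changed less. The middle one, chr1:190135453-190152338 (16886 bp, intron 4), changed with shock by 0.38 ± 0.11 under vehicle (adjusted p = 0.0319) and by 0.65 ± 0.11 under CI-994 (adjusted p = 1.65e-05), and with the drug in Context mice by -0.37 ± 0.11 (adjusted p = 0.0316). The one at the 3′ end, chr1:190118754-190135249 (16496 bp), had 0.19 ± 0.11 (adjusted p = 0.320), 0.38 ± 0.11 (adjusted p = 0.00640) and -0.14 ± 0.11 (adjusted p = 0.496) in the same comparisons. The estimates were thus smaller farther from the start, a description with no test of the order. With loess offsets, which remove each library's trend with the level of a peak, all 3 calls of the middle domain ended (adjusted p = 0.0546 for shock under CI-994, 0.0771 under vehicle and 0.259 for the drug in Context mice). The Context call also ended without Veh-Context replicate 1 or 3 or HDACi-Context replicate 1 or 3 (adjusted p up to 0.219), and the vehicle call without Veh-Context replicate 1 or 2 or any one Veh-CFC library (adjusted p up to 0.140).

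Away from the gene body, Prox1 peaks went either way. The total of the gene was 688, 640 and 695 CPM in Veh-Context and 691, 745 and 804 in Veh-CFC, with overlap, and its change of 0.15 ± 0.10 did not pass the test (adjusted p = 0.293). Under CI-994 the total changed by 0.21 ± 0.10 (adjusted p = 0.0780). It was called higher there with library totals, with loess offsets, over peaks within 50000 bp of the start, and without Veh-CFC replicate 1 or 3, HDACi-Context replicate 2 or HDACi-CFC replicate 1, and under vehicle with loess offsets. Upstream, chr1:190250008-190252317 rose by 0.91 with shock under CI-994 (adjusted p = 2.04e-04), and chr1:190199102-190201449, inside Prox1os, fell by 0.61 (adjusted p = 0.00878). Both were chosen after their values were seen.

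At Bcl11b 17 of 35 peaks rose with shock under CI-994 and 9 of the 35 had negative estimates that were not called. Under vehicle 5 rose. Over all peaks, 20.2% were called higher under CI-994 and 4.41% under vehicle. Its introns hold 3 domains: chr12:107917340-107938884 (21545 bp), chr12:107945864-107980269 (34406 bp) and chr12:107980818-108002634 (21817 bp, intron 1, ending just inside the start). The last held 119, 122 and 130 CPM in Veh-Context, 183, 180 and 195 in Veh-CFC, 90.6, 83.3 and 69.4 in HDACi-Context and 165, 215 and 185 in HDACi-CFC. Again the HDACi-Context libraries were lowest and all CFC libraries higher than all Context libraries. It rose by 0.59 ± 0.11 with shock under vehicle (adjusted p = 0.00126) and by 1.21 ± 0.11 under CI-994 (adjusted p = 2.16e-11), and fell by 0.61 ± 0.11 with the drug in Context mice (adjusted p = 1.35e-04), in all 18 alternatives.

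The domains deeper in the gene rose as much with shock but were not called for the drug. The 34406-bp domain had 108, 116 and 142 CPM in Veh-Context, 202, 194 and 168 in Veh-CFC, 123, 111 and 94.3 in HDACi-Context and 225, 266 and 239 in HDACi-CFC. Its shock changes were 0.63 ± 0.11 under vehicle (adjusted p = 9.27e-04) and 1.16 ± 0.11 under CI-994 (adjusted p = 1.18e-10), and its drug change in Context mice was -0.16 ± 0.11 (adjusted p = 0.397). The 21545-bp domain gave 0.53 ± 0.11, 1.13 ± 0.11 and -0.18 ± 0.11. The Veh-Context and HDACi-Context libraries overlapped at both.

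The narrow peak on the Bcl11b start, chr12:108003211-108003839, which covers the whole printed promoter, had the largest drop of any called member peak with the drug in Context mice. It held 5.08, 4.27 and 3.90 CPM in Veh-Context, 1.95, 2.26 and 1.09 in HDACi-Context, 7.32, 7.10 and 9.20 in Veh-CFC and 3.84, 7.49 and 4.70 in HDACi-CFC. It fell by 1.31 ± 0.25 (log2, adjusted p = 5.15e-04), and its rise with shock under CI-994 was 1.54 ± 0.25 (adjusted p = 4.73e-06). The groups of these 2 comparisons did not overlap. A peak upstream of the gene, chr12:108066009-108074929 (8921 bp), fell by 0.70 ± 0.12 in the first comparison (adjusted p = 1.09e-04) and rose by 0.94 ± 0.12 in the second (adjusted p = 7.31e-08).

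Neurod2, a small gene at chr11:98325415-98329645, sat beside one domain and several shorter peaks. The domain, chr11:98309232-98327345 (18114 bp), covers the downstream flank and the 3′ part of the gene. It had 86.4, 97.3 and 105 CPM in Veh-Context, 134, 131 and 136 in Veh-CFC, 76.9, 67.2 and 43.5 in HDACi-Context and 132, 159 and 145 in HDACi-CFC. It rose by 1.21 ± 0.13 with shock under CI-994 (adjusted p = 7.03e-08) and fell by 0.62 ± 0.13 with the drug in Context mice (adjusted p = 0.00320, or 0.0628 with those 2 groups fitted alone). The CFC libraries of both arms were close together and above all Context libraries. Under vehicle the shock change was 0.47 ± 0.13 (adjusted p = 0.0302), a call lost without Veh-Context replicate 1 or 2 or Veh-CFC replicate 1 or 2 (adjusted p up to 0.221) and with loess offsets (adjusted p = 0.112).

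The peak just inside the Neurod2 start showed the largest rise of any member peak. This narrow peak, chr11:98328900-98329525 (626 bp), held 1.87, 0.589 and 2.13 CPM in Veh-Context, 10.8, 6.47 and 4.81 in Veh-CFC, 0.765, 0.811 and 0.544 in HDACi-Context and 5.58, 4.89 and 4.54 in HDACi-CFC. It rose by 2.13 ± 0.28 with shock under vehicle (log2, adjusted p = 3.65e-05) and by 2.80 ± 0.31 under CI-994 (adjusted p = 6.82e-09), in all 18 alternatives. Its counts were low, from 4 to 84 reads a library. With the drug in Context mice it changed by -1.23 ± 0.38 (adjusted p = 0.0328), which was lost with those 2 groups fitted alone (adjusted p = 0.0672) and without Veh-Context replicate 1 or 3 or HDACi-Context replicate 2 or 3 (adjusted p up to 0.257).

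Just upstream of it, chr11:98329804-98334042, which holds 92 of the printed Neurod2 bases, was the single member peak called for the drug in CFC mice. It had 22.4, 17.5 and 15.7 CPM in Veh-CFC and 27.7, 29.4 and 27.7 in HDACi-CFC, without overlap, a rise of 0.61 ± 0.14 (adjusted p = 0.0243). Leaving out Veh-CFC replicate 2 or 3 or any HDACi-CFC library ended the call (adjusted p from 0.0831 to 0.169), as did loess offsets (adjusted p = 0.0575).

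At Neurod1 the peak over the gene rose with shock while 5 of the other 7 peaks fell under CI-994, where 17.8% of all peaks were called lower. The 8273-bp peak over the gene, chr2:79450578-79458850, held 53.3, 48.0 and 51.0 CPM in Veh-Context, 69.4, 65.4 and 77.2 in Veh-CFC, 32.5, 32.6 and 29.8 in HDACi-Context and 48.2, 57.1 and 55.5 in HDACi-CFC. With shock it rose by 0.47 ± 0.11 under vehicle (adjusted p = 0.00774) and by 0.76 ± 0.11 under CI-994 (adjusted p = 8.21e-07), and with the drug in Context mice it fell by 0.69 ± 0.11 (adjusted p = 4.09e-05), all kept in 18 of 18 alternatives. The 3 HDACi-Context libraries lay below all 9 others.

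The nearest upstream peak, chr2:79459294-79462149, was also called higher under CI-994, by 0.47 ± 0.17 (adjusted p = 0.0298), with 11.5, 7.77 and 7.41 CPM in HDACi-Context and 9.13, 13.9 and 14.0 in HDACi-CFC. These values overlapped, and the call ended with library totals, with DESeq2 and without replicate 2 or 3 of either CI-994 group (adjusted p up to 0.168). The downstream peak chr2:79449401-79450326, next to the gene peak, was lower with shock. It had 3.58, 4.86 and 2.13 CPM in Veh-Context, 1.67, 1.80 and 1.42 in Veh-CFC, 3.62, 4.75 and 2.38 in HDACi-Context and 1.23, 1.14 and 1.34 in HDACi-CFC, so that every CFC library was below every Context library. It fell by 1.53 ± 0.30 with shock under CI-994 (adjusted p = 8.96e-05). The more distant upstream peaks chr2:79498625-79499741 and chr2:79510984-79512722, fell by 1.01 ± 0.23 (adjusted p = 5.39e-04) and by 0.85 ± 0.18 (adjusted p = 3.17e-04). The same 3 peaks were called lower under vehicle, at -1.02 ± 0.32, -0.94 ± 0.27 and -0.66 ± 0.19. Of these, the first call ended with DESeq2, with the 2 groups fitted alone and without any one of 7 libraries, namely Veh-Context replicate 1 or 2, any Veh-CFC library, or HDACi-CFC replicate 2 or 3 (adjusted p up to 0.156), and the second without replicate 1 or 2 of either vehicle group (adjusted p up to 0.143). The third peak was named after its values were seen, and its calls were not followed through the alternatives. The total of the gene, 101, 95.8 and 94.7 CPM in Veh-Context against 99.3, 98.2 and 111 in Veh-CFC, had a change of 0.08 ± 0.08 (adjusted p = 0.479).

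**Figure D3:**
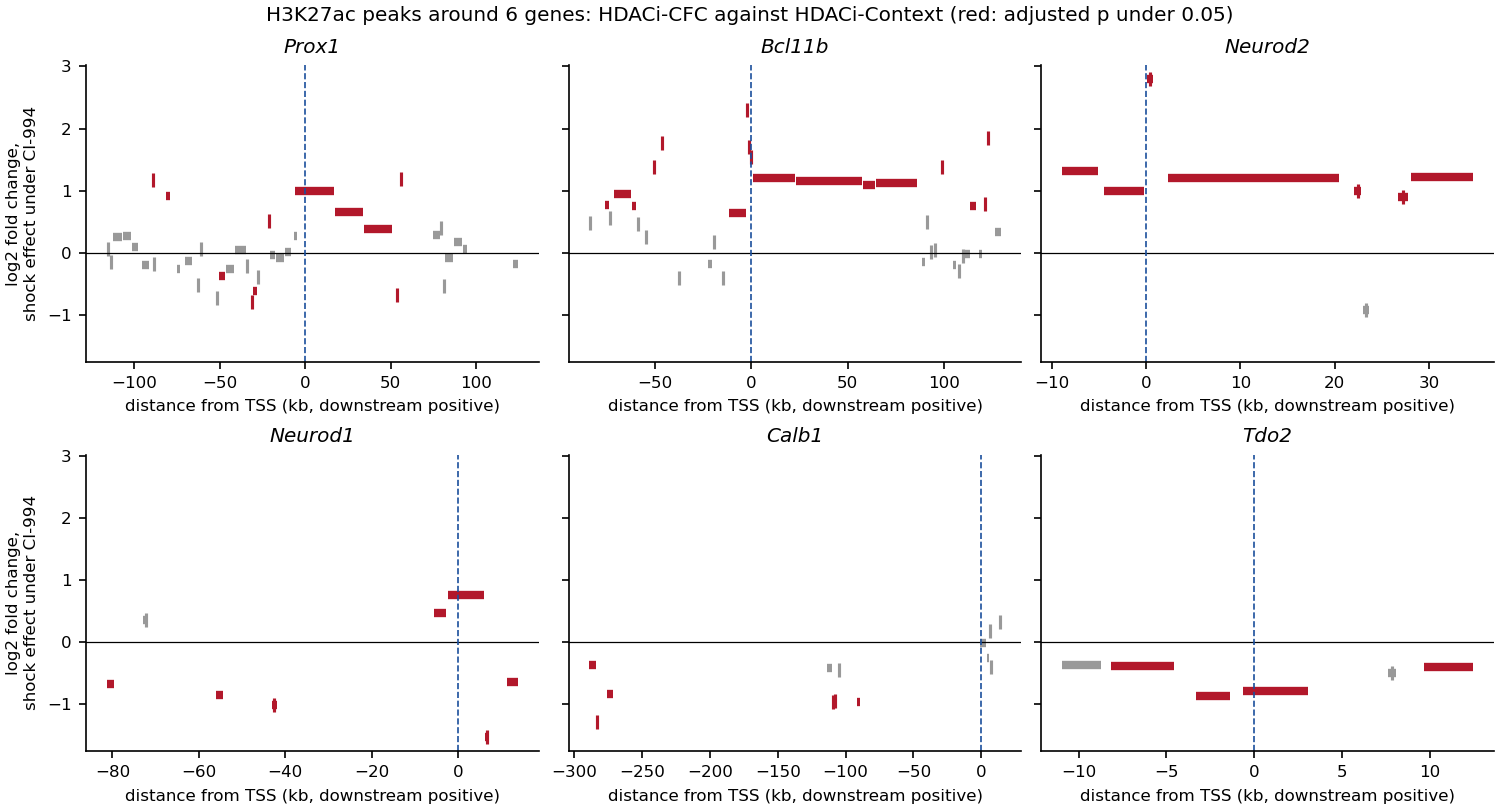
Peaks of 6 member genes by distance from the start site named in the file (horizontal axis, kb) and log2 fold change of shock against context under CI-994 (vertical axis), each drawn at its width, red where called and grey where not. At Bcl11b and Neurod2 the called peaks lie above 0 and at Calb1 and Tdo2 below it, while Neurod1 has a peak at 0.76 over the gene and peaks down to -1.53 around it.

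Calb1, which encodes the calcium-binding protein calbindin, fell only at its upstream peaks. The promoter peak, chr4:15880110-15884490, was not called in any comparison, with 22.5, 20.8 and 18.7 CPM in Veh-Context, 19.8, 23.2 and 25.8 in Veh-CFC, 14.9, 19.1 and 18.2 in HDACi-Context and 13.6, 19.8 and 18.8 in HDACi-CFC. Context and CFC libraries overlapped in both arms, and its shock changes were 0.15 ± 0.14 under vehicle (adjusted p = 0.547) and -0.01 ± 0.14 under CI-994 (adjusted p = 0.950). The 6 peaks that fell under CI-994 had their nearer edge 89621 to 283965 bp upstream. The lowest estimate was at chr4:15597640-15598746, with 3.68, 3.94 and 4.28 CPM in HDACi-Context and 2.17, 1.14 and 1.43 in HDACi-CFC, which fell by 1.282 ± 0.26 on the log2 scale (adjusted p = 1.37e-04). When the total was summed over peaks within 50000 bp of the start, the Calb1 change was -0.29 (adjusted p = 0.0687), so that call rests on peaks farther out, which the file assigns by nearest start.

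Tdo2 encodes tryptophan 2,3-dioxygenase, the first enzyme of the kynurenine pathway. Its promoter peak, chr3:81972669-81976379, held 16.72, 15.6 and 13.7 CPM in Veh-Context, 8.48, 13.5 and 11.6 in Veh-CFC, 13.0, 16.1 and 15.6 in HDACi-Context and 7.39, 8.84 and 9.75 in HDACi-CFC. CFC libraries were below the Context libraries in both arms. Under CI-994 it fell by 0.79 ± 0.15 (adjusted p = 7.97e-05, 18 of 18 alternatives), and under vehicle it changed by -0.45 ± 0.16 (adjusted p = 0.0720). It was the only one of the 16 member promoter peaks called lower in either shock comparison. All 6 peaks named for Tdo2 had negative estimates in both shock comparisons, from -0.37 to -0.54 under vehicle and from -0.36 to -0.87 under CI-994. Some of them overlap Asic5, and the Tdo2 total includes these. Among them is the peak with the highest mean count outside the promoter. It fell by 0.39 under CI-994 (adjusted p = 0.0320), a call lost in 7 of 18 alternatives.

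C1ql2 and C1ql3, relatives of complement C1q that mossy fibre terminals secrete to organise their synapses, each had 1 domain. The C1ql2 domain, chr1:120320319-120330325 (10007 bp, intergenic), had 45.2, 52.0 and 57.3 CPM in Veh-Context, 58.6, 60.0 and 59.2 in Veh-CFC, 36.9, 35.8 and 36.3 in HDACi-Context and 49.1, 64.9 and 54.8 in HDACi-CFC. HDACi-Context lay below all other libraries. The domain fell by 0.50 ± 0.11 with the drug in Context mice (adjusted p = 0.00287, but 0.0675 without Veh-Context replicate 3) and rose by 0.63 ± 0.11 with shock under CI-994 (adjusted p = 3.24e-05). The C1ql2 promoter peak, chr1:120337513-120340345, rose by 0.68 ± 0.15 in the latter comparison (adjusted p = 3.92e-04).

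The C1ql3 domain, chr2:12998185-13010485 (12301 bp), reaches from the neighbouring gene Pter over C1ql3 almost to its start. It changed by -0.44 ± 0.12 with the drug in Context mice (adjusted p = 0.0158) and by 0.46 ± 0.12 with shock under CI-994 (adjusted p = 0.00257). The first call ended without Veh-Context replicate 1 or 3 or HDACi-Context replicate 3 (adjusted p up to 0.0904). Both ended with loess offsets (adjusted p = 0.0853 and 0.590, and a shock change of 0.07).

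The intergenic peaks before C1ql3, chr2:13015611-13016877 and chr2:13040503-13041493, were the only member peaks called higher with the drug in Context mice. The second had 2.17, 2.50 and 2.28 CPM in Veh-Context and 4.24, 3.36 and 5.24 in HDACi-Context, without overlap. The rises were 0.82 ± 0.24 (adjusted p = 0.0234) and 0.89 ± 0.24 (adjusted p = 0.0126), and both calls ended without Veh-Context replicate 1 or 3 or HDACi-Context replicate 3, and the first also without HDACi-Context replicate 2 (adjusted p up to 0.234). With shock under CI-994 the same peaks changed by -0.77 ± 0.24 and -0.71 ± 0.23, against HDACi-Context libraries that both comparisons share.

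Dsp, which encodes the desmosomal protein desmoplakin, had 2 rises with shock under CI-994 and 2 drops with the drug in Context mice among its 13 peaks. Over all peaks, 20.2% were called higher in the first comparison and 5.85% lower in the second. Its promoter peak in intron 1, chr13:38151974-38154479, had 5.15, 6.62 and 4.78 CPM in Veh-Context, 10.7, 8.91 and 4.53 in Veh-CFC, 4.80, 4.98 and 4.01 in HDACi-Context and 8.69, 10.3 and 10.8 in HDACi-CFC. It rose by 1.10 ± 0.19 with shock under CI-994 (adjusted p = 2.00e-05, 18 of 18 alternatives) and changed by 0.60 ± 0.21 under vehicle (adjusted p = 0.0706), where Veh-CFC replicate 3 was below the Veh-Context libraries. The other Dsp peak called for shock was 215 bp wide with counts of 1 to 14 a library, and its call was lost in 4 of 17 alternatives. The drops with the drug in Context mice were at intergenic peaks upstream, by 0.58 ± 0.17 at chr13:38102539-38104537 (adjusted p = 0.0222) and by 0.56 ± 0.16 at chr13:38139233-38142764 (adjusted p = 0.0219). At the first, the Veh-Context libraries had 9.33, 10.3 and 10.00 CPM and the HDACi-Context libraries 5.56, 6.90 and 7.21, without overlap. Both were named after their values were seen. The peak just before the Dsp start, chr13:38150217-38151125, was not called, at -0.33 under CI-994 (adjusted p = 0.317).

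Pdzd2, a long gene for a protein with several PDZ domains, was the most even of the 10. Its 13512-bp intronic domain, chr15:12710662-12724173, had 62.6, 57.4 and 57.3 CPM in Veh-Context, 49.7, 59.8 and 63.1 in Veh-CFC, 51.7, 63.2 and 55.9 in HDACi-Context and 48.5, 62.1 and 62.2 in HDACi-CFC. The groups overlapped throughout, and the shock change under CI-994 was 0.01 ± 0.11 (adjusted p = 0.938), or -0.31 with loess offsets (adjusted p = 0.00933). The 15208-bp domain next to it, chr15:12724334-12739541, which ends just inside the start, changed by 0.40 ± 0.12 (adjusted p = 0.00782) with shock under CI-994. The Context drug change of that domain, -0.37 ± 0.12 (adjusted p = 0.0438), was lost in 11 of 18 alternatives, among them any one Veh-Context library, Veh-CFC replicate 2, HDACi-Context replicate 1 or 3 and HDACi-CFC replicate 2 or 3 left out (adjusted p up to 0.168). The shock call was lost without HDACi-CFC replicate 2 or 3 (adjusted p up to 0.0649) and with loess offsets (adjusted p = 0.895).

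The 11 broad domains come from 6 genes, and with TMM factors the calls at them had 1 direction within each comparison. Of the 11, 7 fell and 0 rose with the drug in Context mice (28.2% of all 2345 broad peaks were called, 22.8% lower). With shock under vehicle 6 rose and 0 fell (22% of all were called, 20.5% higher), and with shock under CI-994 10 rose and 0 fell (62.8% of all, 58.8% higher). The drug comparison in Context mice shares its HDACi-Context libraries with the shock comparison under CI-994. It shares its Veh-Context libraries with that under vehicle, so these counts are not independent. For the drug in CFC mice edgeR called 0 of 11, where 6.44% of all broad peaks were called, while an unadjusted p below 0.05 was reached by 2 higher and 1 lower, and DESeq2 called 2. The median log2 changes over the 11 were -0.37, 0.38, 0.65 and -0.00 in this order, beside -0.15, 0.13, 0.37 and 0.14 over all broad peaks. Members under 2000 bp wide had 19 rises and 15 drops among 105 with shock under CI-994. Over peaks of every width 37.9% were called (20.2% higher and 17.8% lower), and the share over all peaks under 2000 bp was not counted. With loess offsets the counts in the 11 domains were 4 lower, 4 higher, and 6 higher with 1 lower.

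**Figure D4:**
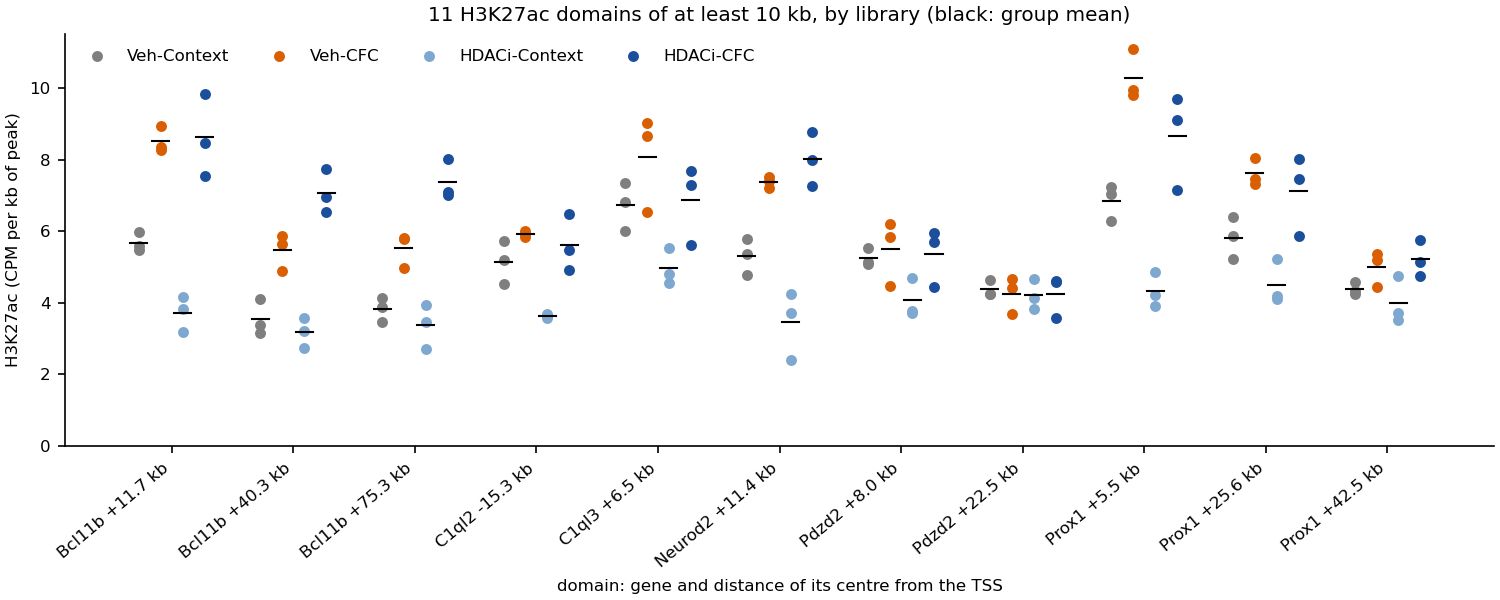
H3K27ac level per kilobase (CPM per kb, vertical axis) in each of the 11 member domains of at least 10000 bp, in the 3 libraries of each group (points, with the group mean as a black line), named by gene and distance of its centre from the TSS. The 22494-bp Prox1 domain over the start has the lowest points in HDACi-Context, while the 13512-bp Pdzd2 domain has all 4 groups intermixed.

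For shock, and for the drug in Context mice, calls at member promoters went mainly in the direction of calls at all promoters of the table. By value, a larger share of the member promoter peaks was called. That difference was not tested, and some of these peaks belong to the same gene. Of the 16 promoter peaks, 6 rose and 0 fell with shock under vehicle (14.6% of all promoter peaks were called, 14.1% higher), and 11 rose and 1 fell under CI-994 (47.3% of all, 45.3% higher). With the drug 7 fell and 0 rose in Context mice (22.2% of all, 21.3% lower), and 1 rose and 0 fell in CFC mice (2.78% called in either direction). The medians over the 16 were 0.37 under vehicle and 0.72 under CI-994 for shock, beside 0.25 and 0.42 over all promoter peaks. The share of counts in promoters was higher in the CFC libraries, as given above, and its part in these counts was not tested.

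**Figure D5:**
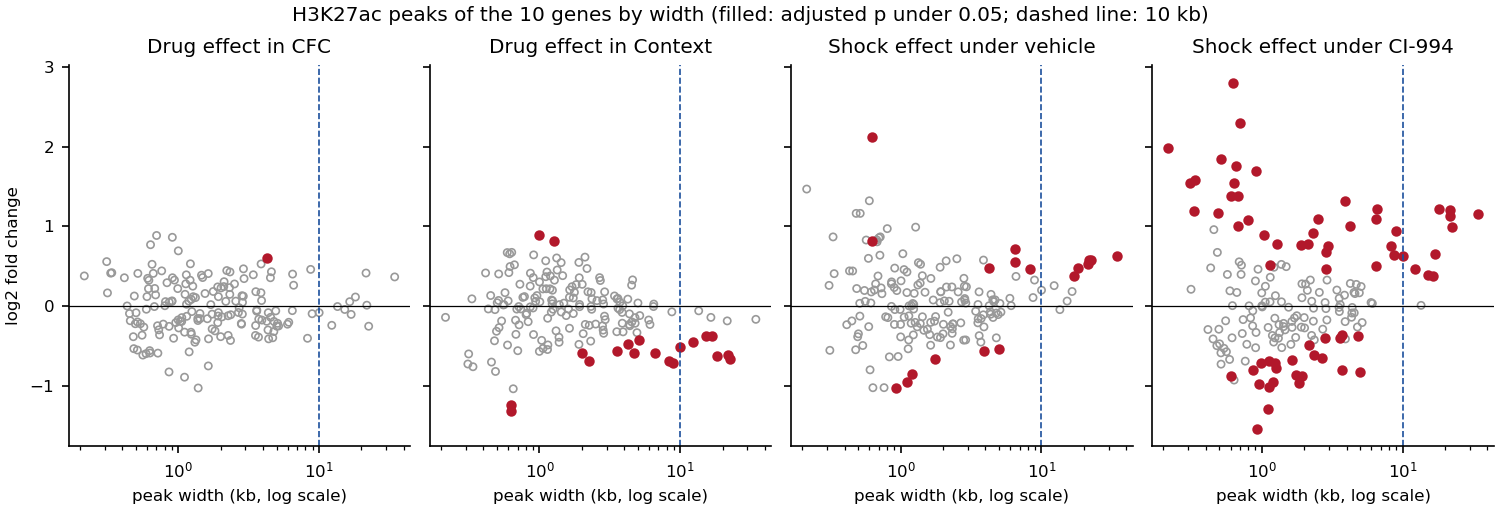
Width of each of the 176 member peaks (horizontal axis, kb, log scale, dashed line at the 10000-bp limit) against its log2 fold change (vertical axis, filled where called) in the 4 comparisons, 1 panel each. In the panel of shock under CI-994, peaks under 2000 bp spread to both sides of 0, from -1.53 to 2.80, and the 11 peaks of at least 10000 bp lie between 0.01 and 1.21.

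The shock change was larger under CI-994 than under vehicle at many of these loci by value, but the difference itself did not pass the test. For the drug by shock interaction, edgeR called 0 of 176 member peaks (0.0347% of all peaks), 0 of 11 domains (0.384% of all broad peaks), 0 of 16 promoter peaks (0.14%) and 0 of 10 gene totals (0% of all). An unadjusted p below 0.05 was reached by 18 peaks higher and 7 lower and by 2 totals higher. DESeq2 called 6 member peaks, 4 of them domains, and 995 of all 144014 peaks. The lowest adjusted p was 0.0765, at the Neurod2 peak chr11:98294961-98301551, with an interaction of 0.84 ± 0.20, followed by 0.0787 at the 21817-bp Bcl11b domain, with 0.63 ± 0.15. The interaction was 0.60 ± 0.20 for the Neurod2 total (adjusted p = 0.285) and 0.42 ± 0.13 for Bcl11b (adjusted p = 0.278). Without HDACi-Context replicate 1, 9 member peaks and 2 totals were called, where 3731 of all 144149 peaks and 901 of all 18808 totals were. Without Veh-CFC replicate 1 the count was 6 member peaks (2588 of all 144052 peaks). Without Veh-Context replicate 1 it was 3 (874 of all 144148).

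A further 20 genes known from dentate granule neurons, among them Zbtb20, Rfx3, Dock10 and Stxbp6, were described through 1 promoter peak a gene, which 18 had. Shock called 1 higher and 0 lower under vehicle (16.9% of all genes' promoters) and 6 higher and 2 lower under CI-994 (51% of all). The drug called 0 higher and 7 lower in Context mice (25.3%) and 1 higher and 0 lower in CFC mice (3.44%). The medians were 0.18, 0.22, -0.20 and -0.04 in this order, beside 0.26, 0.44, -0.31 and -0.08 over all genes' promoters. The totals of the 20 genes summed to 5279 to 5736 CPM in Veh-Context and 4291 to 5413 in Veh-CFC. In HDACi-Context they summed to 5541 to 6656 CPM and in HDACi-CFC to 4507 to 5322. The 10 members summed to 2205 to 2323, 2362 to 2599, 1953 to 2275 and 2310 to 2842 CPM in the same groups. Under CI-994 the CFC sums thus lay below the Context sums for the wider list and above them for the members. These sums were not tested. The largest change among the 18 was that of Plk5, a polo-like kinase of neurons, at 1.63 ± 0.18 with shock under CI-994 (adjusted p = 5.26e-09), while Zbtb20, a zinc-finger factor, fell by 0.53 ± 0.16 (adjusted p = 0.00947).

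Promoters of markers of other cells were also called in these comparisons. Over all genes' promoters, shock called 16.9% under vehicle and 51% under CI-994, in either direction. The drug called 25.3% in Context mice and 3.44% in CFC mice. A count near these shares cannot be read as a trait of a list. Of 9 oligodendrocyte promoters, 5 rose under vehicle and 7 under CI-994 with shock, and 4 fell with the drug in Context mice, with 0 in the other direction each time. The summed level of that list was 726 to 762 CPM in Veh-Context, 793 to 891 in Veh-CFC, 622 to 674 in HDACi-Context and 837 to 870 in HDACi-CFC. Of 5 microglial promoters, 2 rose with shock under vehicle, 4 rose and 1 fell under CI-994, and 3 (Cx3cr1, Csf1r and Tmem119) fell with the drug in Context mice. The summed level of the 7 microglial genes was 125 to 147, 143 to 164, 131 to 138 and 123 to 130 CPM in the same groups. CA pyramidal markers summed to 826 to 933, 856 to 889, 916 to 975 and 913 to 1009 CPM. Of their 6 promoters, 2 rose with shock under vehicle and 4 under CI-994, with 0 lower. With the drug, the promoter of Neurod6 fell in Context mice and that of Nr3c2 rose in CFC mice. The 6 interneuron genes summed to 122 to 126, 100 to 108, 135 to 151 and 117 to 123 CPM, and the promoters of Gad1 and Erbb4, 2 of 2, were called higher with shock under CI-994. Astrocyte genes summed to 471 to 537, 453 to 489, 514 to 584 and 451 to 501 CPM, with 3 of 6 promoters higher and 0 lower with shock under CI-994 and 0 called with the drug or with shock under vehicle. Markers of immature granule neurons had 0 and 2 of 3 promoters higher with shock under vehicle and under CI-994, and those of mossy cells 0 and 0 of 2. The part of these cells in the member changes was not tested.

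Among 411 genes with a mean total within 2-fold of that of Prox1, the pattern most like Prox1 over the 12 libraries was that of Rps6kc1, a kinase gene that is the next protein-coding gene, 602052 bp away (Pearson r = 0.92 across libraries, rho = 0.89). It was followed by Ippk (r = 0.89), Add2 (0.87), Disc1 (0.86) and Gm11266 (0.84). These totals come from the same libraries, with their depth and promoter share, and after removing group means r was 0.90 for Rps6kc1 and 0.78 for Disc1. Within the members, Neurod2 and Bcl11b had r = 0.97, Calb1 and Tdo2 0.98, and Bcl11b and Tdo2 -0.85, as descriptions over the same 12 libraries.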

How the data were processed

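H3K27ac ChIP-seq of NeuN-sorted dentate gyrus nuclei gave 12 libraries in 4 groups of 3, and 12 input libraries are not analysed here. Where the series text and the labels differ on group numbers, the labels were followed. The authors deposited a table of raw read counts per peak in whole numbers, with a smallest count of 1 and no value of 0. Column names give treatment and replicate but no antibody. Each treatment and replicate had a single column, which was taken as the H3K27ac library. Per the file headers, other columns hold the peak width, the distance to a TSS and a chromatin state. The deposited percent columns were not used. Per the submitters' processing notes the tools were HOMER 4.11, DiffBind 2.16.2, DESeq2 1.28.1, MACS2, SAMtools 1.9, Bowtie2 2.3.5 and Trimmomatic 0.38, with mm10, and their roles are not stated. How peaks were merged over libraries is not given in the sources used here.

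Counts of all 144154 peaks were fitted by edgeR 4.0.16 in R 4.3.3 (quasi-likelihood F test, TMM, filterByExpr with a minimum count of 10, robust), 1 term per group over all 12 libraries, and Benjamini-Hochberg adjustment over the 144014 peaks left. Gene totals were fitted the same way over 18806 genes. A feature was called at an adjusted p under 0.05. SE was the log2 change divided by the root of F. The scripts were tested on simulated data. Of the symbols, 98.8% were found in the GRCm38.p6 gene table, all members included. Promoter sequences came from RefSeq, with 9 of 10 members matched; Calb1 was not. Alternatives were library totals, DESeq2 1.42.0, loess offsets (span 0.3), no filter, the 2 groups alone, a replicate block, totals within 50000 bp and leaving out each library.

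The members and lists were chosen with earlier results of these data known. Named peaks of each gene were the promoter peak and the other peak with the highest mean count, the widest of at least 10000 bp, and in each contrast the 3 called peaks with the largest rise and drop. Peaks named beyond these were chosen after their values were seen.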

Additional observations from a re-analysis of the deposited data

How the results depend on the processing

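Most values for the named genes and peaks held under the alternatives: 3456 kept direction and side of the threshold, 141 lost the call and 57 gained it. A further 130, without a call in either fit, changed sign, and 1 changed sign with a call in 1 of the 2 fits. With library totals, the drug in CFC mice called 2 member peaks and 1 gene total and the drug in Context mice 3 gene totals, against 1, 0 and 0. DESeq2 called 5 member peaks for the drug in CFC mice and 6 for the interaction, where it called 1736 and 995 of all 144014 peaks. Loess offsets gave 3 peaks for the drug in CFC mice and 2 gene totals in Context mice, and turned the 13512-bp Pdzd2 domain under CI-994 from 0.01 to -0.31. Fitting the compared groups alone gave 2 peaks for the drug in CFC mice. The causes of these shifts were not tested.

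Leaving out one library gave 0 to 5 peaks for the drug in CFC mice, 8 to 22 in Context mice, 6 to 21 for shock under vehicle, 49 to 73 under CI-994 and 0 to 9 for the interaction. The gene totals called ranged from 0 to 0, 0 to 1, 0 to 4, 4 to 6 and 0 to 2. For the drug in CFC mice the 5 came without Veh-CFC replicate 1, 4 without HDACi-Context replicate 1, 3 without HDACi-Context replicate 3, and 0 without Veh-CFC replicate 2 or 3 or any HDACi-CFC library. Over all peaks, 1322 with every library, the first of these fits called 2610, 1947 and 1567, and those with 0 member calls 225 to 655.

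With the replicate block, the drug in CFC mice called 2 member peaks, and the Neurod2 total under vehicle had an adjusted p of 0.0666. Replicate numbers did not pair the libraries: of 18 same-number pairs, 2 had a correlation of deviations over 0.1 (-0.28 to 0.351), and 6 of 12 libraries matched their own number best. Depth limits the narrow peaks, where the Neurod2 start peak had as few as 4 reads in a library.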
